A study of Mus musculus with 2 samples.

Results

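The complement genes described here are 36 mouse genes for complement components, receptors and regulators, listed by name and matched to the gene symbols of the expression table. Of these, 30 were among its 20002 genes, and 29 had at least 10 scaled reads in 1 library and were compared, as were 17469 genes in all. Cfd, Hc, C8b, Fcnb, C5ar2 and Vsig4 were not among the rows used here. Bulk RNA-seq of whole kidney was analysed in 2 libraries, 1 from control mice and 1 from mice that the labels call a conditional knockout (CKO) of Reg-2 in proximal tubules. By the study's methods these were C57BL/6J mice in which Regnase-2, an RNase that degrades mRNA, was knocked down by AAV9, an adeno-associated virus, carrying a short hairpin RNA (shRNA) and given by tail vein at 11 weeks of age. No Cre line or deleted allele is named for them there. The control mice received a control shRNA according to the description of the sequencing, or AAV9 with an empty vector according to that of the injections. The age at harvest is given as 14 weeks in the former and as 16 weeks, 5 weeks after injection, in the latter. The RNA came from a left kidney, and neither the sex of these mice nor whether a library came from 1 mouse or from several is stated in the sources used here.

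Complement is a cascade of plasma and membrane proteins that marks cells and microbes for uptake, attracts leukocytes and opens pores in membranes. It starts by the classical pathway, through C1q bound to antibodies or to dying cells, by the lectin pathway, through sugar-binding proteins, or by the alternative pathway, which keeps itself going on surfaces without regulators. All of them cleave C3 and end in the same terminal proteins, most plasma complement comes from the liver, and the tubular cells of the kidney are a known local source of C3.

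The deposited values, called normalized counts in their source, are whole numbers that start at 35 for the control and at 51 for the CKO library. A constant of 34 and 50 was taken off to recover reads, an inference from the columns, and the totals were then 38851231 control reads and 43588721 CKO reads. The latter were multiplied by 0.667, which is the ratio of control to CKO reads at the median gene, and a difference is given as log2 of the scaled CKO reads plus 1 over the control reads plus 1. Zc3h12b, which encodes Regnase-2, had 47 control reads and 59 in the other library, a log2 ratio of -0.25 with a 95% Clopper-Pearson interval of -0.83 to 0.33. The targeted gene thus did not check the labels at this depth, and "the library labelled CKO" is written for that reason. With 1 library per group no difference has a replicate check, no test between the groups was made, and the intervals cover counting error only.

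Of the 29 complement genes compared, 16 were higher by at least 2-fold in the library labelled CKO, against 13.4% of all genes compared, and 3 were at least 2-fold lower, against 5.35% of all genes. The other 10 lay between these limits. The median log2 ratio of the 29 genes was 1.54, beside 0.02 for all genes, and the range ran from -1.58 for Masp2 to 5.63 for C3. Together, the 30 genes in the table held 29490 control reads and 107380 in the other library, 2.43 times as many after scaling. That is 0.0759% of all reads in the control library (95% Clopper-Pearson interval 0.0750% to 0.0768%) and 0.246% (0.245% to 0.248%) in the library labelled CKO. Without C3 the shares were 0.0742% and 0.133%, and the summed reads 1.34 times as many after scaling or 1.79 times with equal totals. In whole kidney, more cells of a type and more RNA per cell cannot be told apart.

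**Figure D1:**
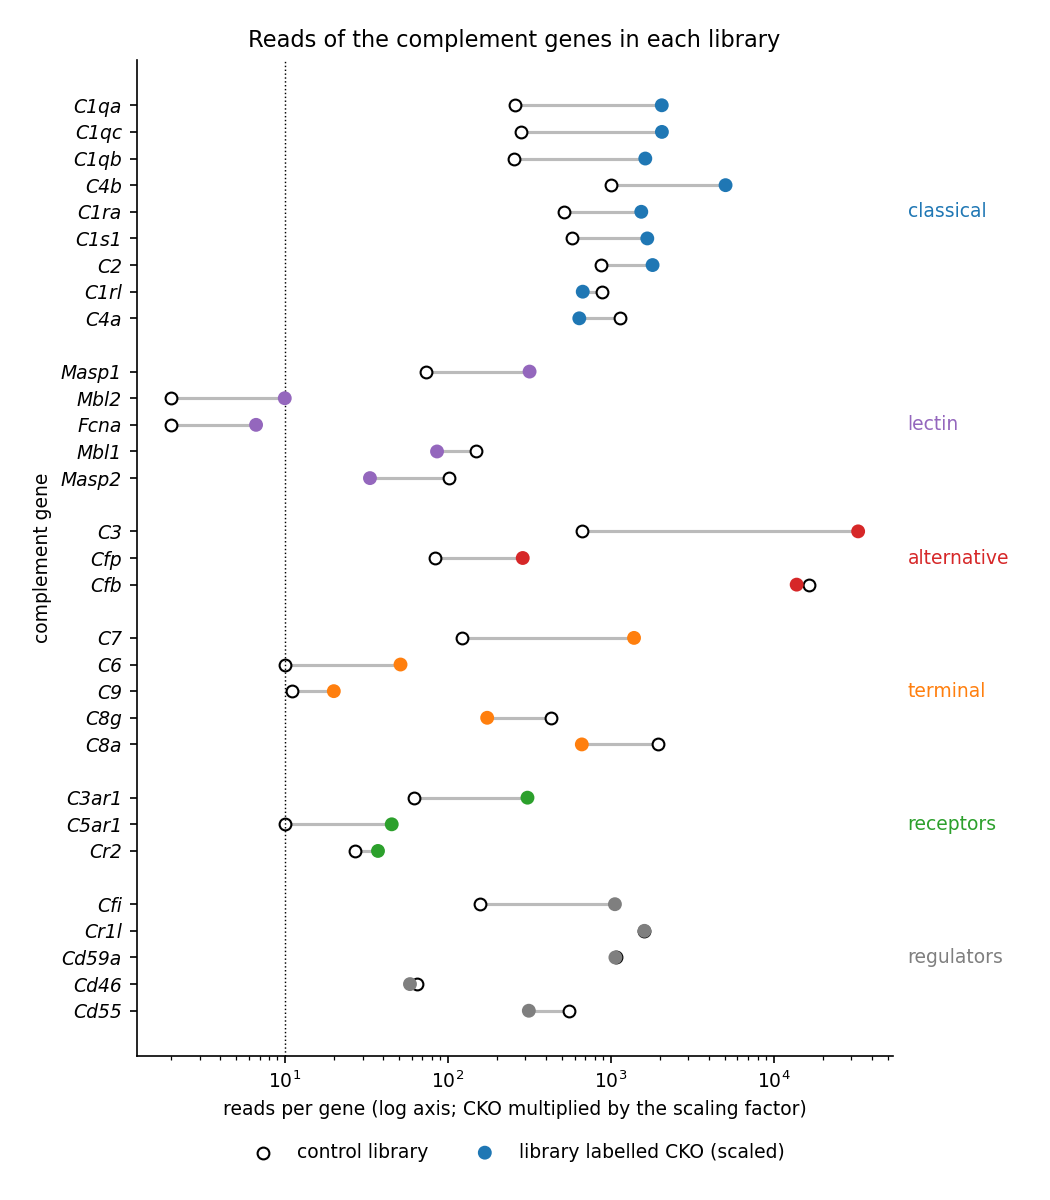
Reads of the 30 complement genes in the table, on a log axis, by step of the cascade. Open circles are the control library, filled circles are the library labelled CKO after scaling, and the dotted line is the minimum of 10 reads; the widest gap is that of C3, from 668 to 33015 scaled reads, while Cr1l and Cd59a overlap.

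The classical pathway had all 9 listed genes in the table and the most members that were higher: 7 of 9, with none at least 2-fold lower and a median log2 ratio of 1.58. C1qa, C1qb and C1qc encode the A, B and C chains of C1q, the subunit that recognises antibody-coated and dying cells. C1qa had 258 control reads and 3088 in the library labelled CKO, for a log2 ratio of 2.99 with an interval of 2.81 to 3.19. C1qb had 255 and 2447 reads, with a log2 ratio of 2.67. C1qc had 281 and 3094 reads, with a log2 ratio of 2.87. The 3 genes, whose products assemble into 1 protein, were thus near each other in each library and rose by similar amounts. They lie side by side within 18.7 kb of chromosome 4, at chr4:136880126-136898844 of GRCm38.p6, in the order C1qb, C1qc and C1qa. The genes next to them on either side did not share the rise, since Ephb2 was at 0.53 and Zbtb40 at -0.45.

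Because these neighbours moved together, the 100 bases upstream of the RefSeq gene are shown for C1qb (chr4:136886201-136886300, minus strand) and C1qc (chr4:136892937-136893036, minus strand), which have an entry among the RefSeq promoters of GRCm38.p6. None of the 4 motifs searched in the promoters (kappaB-like, gamma-activated, interferon-stimulated and C/EBP-like, spelled out with the counts over all promoters) was found in either of their 300-base windows, so that no letters are in capitals.

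C1qb: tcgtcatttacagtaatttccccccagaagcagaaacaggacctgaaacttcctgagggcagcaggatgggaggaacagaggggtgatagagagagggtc
C1qc: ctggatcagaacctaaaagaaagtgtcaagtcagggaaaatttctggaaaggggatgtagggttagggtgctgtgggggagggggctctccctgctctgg

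The proteases of the C1 complex rose less than C1q. C1ra, which encodes the protease C1r that activates C1s, had 514 control reads and 2312 in the library labelled CKO, for a log2 ratio of 1.58. C1s1, which encodes C1s, the protease that cleaves C4 and C2, had 577 and 2517 reads, at a log2 ratio of 1.54. Beside them on chromosome 6, within 49.3 kb, lies C1rl, a C1r-like protease, with 886 and 1011 reads and a log2 ratio of -0.39, which became 0.02 when the library totals were made equal. Clstn3, the next gene on the other side of C1rl, was at 1.5025 with 13 and 58 reads, so that C1rl was within 2-fold between genes that rose. Reads of these genes may be shared with copies: of the 100-base windows along the longest C1ra transcript of GENCODE M21, 35.9% were also found in another gene, mostly C1rb, and 20.02% of those of C1s1, mostly in Gm16567, a gene on the opposite strand. C1rb itself was at 1.46 and the copy of C1s1, C1s2, at 1.61.

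The C4 genes differed. C4b, which encodes complement C4, had 1010 control reads and 7607 in the library labelled CKO, for a log2 ratio of 2.33 with an interval of 2.23 to 2.42. C4a encodes the sex-limited protein, a close copy of C4, and had 1143 and 963 reads, with a log2 ratio of -0.83 (-0.96 to -0.71), within 2-fold, and -0.41 with equal totals. The pair thus began at similar reads and ended far apart, with the reads per kb of C4b at 0.882 of those of C4a in the control library and at 7.89 times those of C4a in the other. They share 16.5% of their 100-base windows, so that a part of the reads of each could have been given to the other or left out by the counting. C2, the protease of the classical C3 convertase, had 875 and 2712 reads, at a log2 ratio of 1.05 (0.94 to 1.16), close to the 2-fold limit.

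C4b, C4a, Cfb and C2 lie in this order within 154 kb of the major histocompatibility region, at chr17:34728139-34882100. Their log2 ratios spread over 3.16, while the 9 other genes compared that lie between them or next to them were all within 2-fold, from -0.52 to 0.72. The counting of C2 and Cfb has a limit of its own. Gm20547, a transcript on the same strand that reads through both genes and is not among the rows used here, holds 53.2% of the 100-base windows of C2 and 81.0% of those of Cfb.

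Fewer members of the lectin pathway had enough reads, and they did not move as a group: of 6 listed, 5 were in the table and 4 were compared, with 2 at least 2-fold higher, 1 at least 2-fold lower and a median log2 ratio of 0.54, which was -0.79 with at least 50 reads, as Mbl2 left the list. Masp1, a protease that starts the lectin pathway, had 74 control reads and 477 in the library labelled CKO, with a log2 ratio of 2.09. Masp2, the protease that cleaves C4 and C2 in this pathway, had 102 and 50 reads, at a log2 ratio of -1.58 (-2.13 to -1.11). These partners thus differed in direction, with the exception that Masp2 was at -0.44 in the values as deposited, within 2-fold. Of the windows of Masp2, 55.6% are shared with the last part of Tardbp, an abundant gene on the opposite strand with 5274 and 8671 reads and a log2 ratio of 0.13. Whether the counting used the strand is not given in the sources used here, so that reads of the pair cannot be told apart.

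Of the sugar-binding proteins, Mbl1, a mannose-binding lectin, had 149 and 129 reads, at a log2 ratio of -0.79 (-1.14 to -0.44). Mbl2, the other such lectin, had 2 control reads and 15 in the library labelled CKO, a 5-fold ratio with an interval of 1.16 to 45.1, and its 10 scaled reads there just met the minimum, which it passed through that library alone. At the 2-fold limit it was not among the higher genes in 5 of the other settings. Its log2 ratio with 1 added to both sides, 1.87, was also below the 4-fold limit. Fcna, which encodes ficolin A, had 2 and 10 reads and was not compared. At this depth a difference in Fcna was not detectable.

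The alternative pathway held the highest ratio of all 29 genes. C3, the central protein of the cascade, had 668 control reads and 49523 in the library labelled CKO. The log2 ratio was 5.63 with an interval of 5.52 to 5.74, or 49.4-fold (45.8 to 53.4), and it ranked 6 from the top among 17469 genes. C3 (gene ID 12266) lies at chr17:57203967-57228136 on the minus strand, far from the C4 genes on the same chromosome. No other gene of the GENCODE annotation shares a 100-base window with it. The 250 bases upstream of its RefSeq start site, at chr17:57228137-57228386 on the minus strand, are shown because C3 carried the main change. The capitals mark a match to the letters TTGCNNAA, which resemble a site for C/EBP factors, beginning 45 bases upstream of the start site.

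C3: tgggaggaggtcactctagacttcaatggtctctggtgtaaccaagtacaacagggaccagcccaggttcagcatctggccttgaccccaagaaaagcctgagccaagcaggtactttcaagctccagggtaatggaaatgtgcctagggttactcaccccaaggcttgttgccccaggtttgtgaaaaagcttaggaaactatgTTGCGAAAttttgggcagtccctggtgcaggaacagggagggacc

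Cfb, which encodes factor B, the protease of the alternative C3 convertase, had 16522 control reads and 20777 in the library labelled CKO. The log2 ratio was -0.25 (-0.28 to -0.22), but 0.16 with equal totals, so that no direction is given for it. Cfp, which encodes properdin, the protein that stabilises this convertase, had 84 and 433 reads, at a log2 ratio of 1.77 (1.44 to 2.14). With 2 of the 3 genes compared at least 2-fold higher, the median of the alternative pathway was 1.77.

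C3 and Cfb between them held most complement reads, and their order changed. Cfb made up 56.0% of the reads of the 30 genes in the control library (95% Clopper-Pearson interval 55.5% to 56.6%) and 19.3% (19.1% to 19.6%) in the library labelled CKO. C3 made up 2.27% (2.10% to 2.44%) and 46.1% (45.8% to 46.4%). The alternative pathway, under which C3 is listed here although all pathways cleave it, had the largest share, 58.6% in the control library and 65.9% in the other. C3 made up 668 of its 17274 control reads and 49523 of its 70733 reads in the library labelled CKO. The share in the latter is thus mostly that of C3, and the smaller share of Cfb is not a fall in its reads. The share of the classical pathway was 19.7% and 24.0%, and that of the terminal proteins was 8.58% and 3.22%. The regulators had 11.7% and 5.75%, the lectin pathway 1.12% and 0.634%, and the receptors 0.336% and 0.547%. Being shares of 1 sum, these values cannot move independently of C3.

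**Figure D2:**
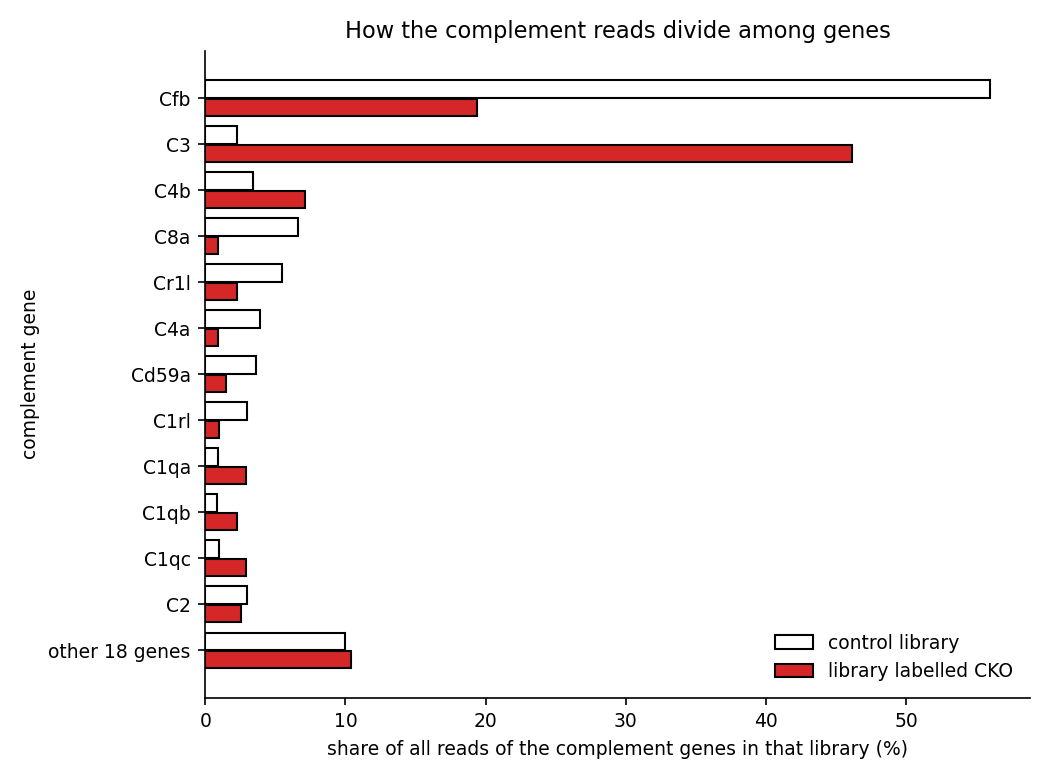
Share of the reads of the 30 complement genes that each gene held, in percent, in the control library (open bars) and the library labelled CKO (filled bars), with the genes of smaller share added up in the last pair of bars. Cfb held 56.0% in the control library, and C3 held 46.1% in the library labelled CKO.

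Shares of reads depend on the length of a gene, so that levels were also compared as reads per kb of exon. On this scale Cfb led the control library with 6006 reads per kb, far above Cd59a with 594, C8a with 539 and Cr1l with 496. C3 was number 16 there, with 130 reads per kb. In the library labelled CKO, C3 led with 6428 scaled reads per kb, before Cfb with 5035 and C1qa, C1qc and C1qb with 1979, 1715 and 1499. C4b followed with 943, having been number 14 in the control library with 188.

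The terminal proteins split by gene, with 2 of 5 at least 2-fold higher, 2 at least 2-fold lower and a median log2 ratio of 0.81. C7, a component that anchors the growing attack complex in the membrane, had 122 control reads and 2087 in the library labelled CKO, for a log2 ratio of 3.50 (3.25 to 3.79). It ranked 86 from the top of all genes and after C3 had the highest ratio of the 29 complement genes compared. C6, which binds to C5b before C7 does, had 10 and 77 reads, at a log2 ratio of 2.25 (1.40 to 3.48). C6 and C7 lie on chromosome 15, 337 kb from the outer end of one to that of the other. Gm16374, which lies between them and had 987 and 931 reads, did not share the rise, at -0.67. Oxct1, the next gene of the table on the side of C6, was at -1.26. It ends at chr15:4155344, while C6 begins at chr15:4727067. Gm16077, the gene beside C7, had 4 and 12 reads and was not compared.

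The C8 chains went the other way. C8a, which encodes the alpha chain that enters the membrane, fell from 1960 control reads to 998 in the library labelled CKO, for a log2 ratio of -1.56 (-1.67 to -1.45). C8g, which encodes the gamma chain, a lipocalin, had 428 and 262 reads, at a log2 ratio of -1.29 (-1.52 to -1.07). These genes lie on chromosomes 4 and 2, so that they moved alike without being neighbours. C8g was within 2-fold with equal totals, at -0.87, and so were both in the values as deposited, without floor or scaling, C8a at -0.93 and C8g at -0.56. C9, which forms the ring of the pore, had 11 and 30 reads, at a log2 ratio of 0.81 (-0.18 to 2.01), an interval that spans 0, and counted as higher with equal totals, at 1.21. The summed reads of the 5 terminal genes were 2531 and 3454, or 0.910-fold after scaling, while their ratios ranged from -1.56 to 3.50.

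The genes with a match to the gamma-activated motif include C7 and C8a, which moved in opposite directions. For C7, a stretch of its promoter at chr15:5063914-5063952 on the minus strand is shown with the match to TTCNNNGAA, the core bound by STAT factors, in capitals, and its first base lies 164 bases upstream of the start site.

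C7: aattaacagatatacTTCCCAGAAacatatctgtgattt

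**Figure D3:**
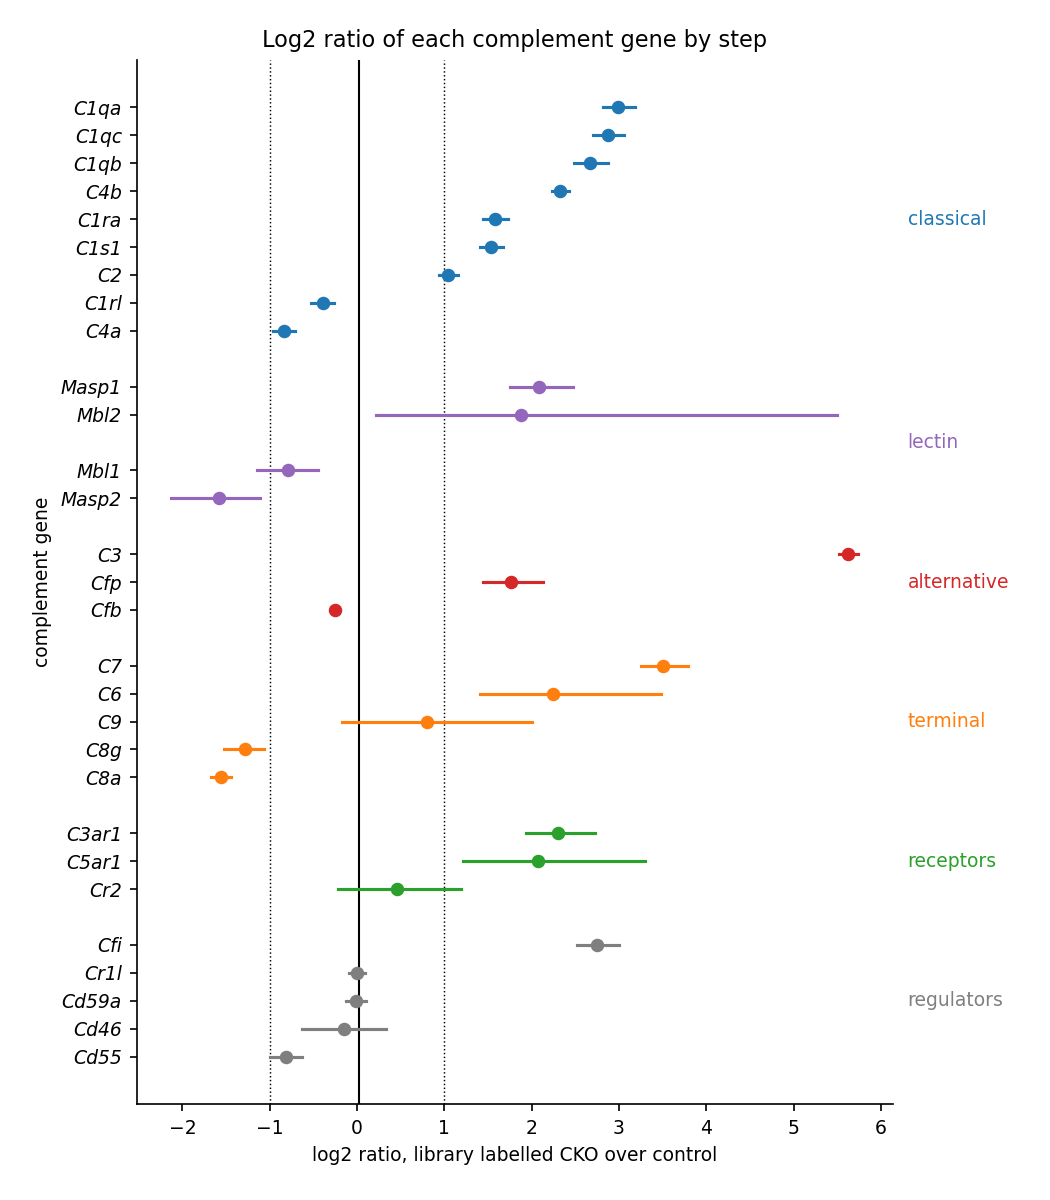
Log2 ratio of the library labelled CKO over the control library for the 29 complement genes compared, by step. Points are ratios with 1 added to both sides, lines are 95% Clopper-Pearson intervals without that addition, which cover counting error only, the solid line is the median of all genes (0.02) and the dotted lines are the 2-fold limits; C8a, C8g and Masp2 lie at least 2-fold lower here, C8g not with equal totals and none of them in the values as deposited.

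The receptors had few reads and were at the higher end of the list, with 2 of the 3 genes compared at least 2-fold higher and a median log2 ratio of 2.07. C3ar1, the receptor for the fragment C3a on myeloid cells, had 62 control reads and 463 in the library labelled CKO, for a log2 ratio of 2.30 (1.93 to 2.72). C5ar1, the receptor for C5a, a strong attractant of neutrophils, had 10 and 68 reads, at a log2 ratio of 2.07 (1.21 to 3.30). Cr2, which in the mouse encodes complement receptors 1 and 2 of B cells and follicular dendritic cells, had 27 and 56 reads, at a log2 ratio of 0.45 (-0.22 to 1.19). A difference in Cr2 was therefore not detectable at this depth. C3ar1 held the one kappaB-like match among the 29 promoters searched, and its promoter next to the start site (chr6:122856158-122856186, minus strand) is shown with that match in capitals, which is the motif read on the other strand.

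C3ar1: taagaggtgactcatGGAAAGGCCCttcc

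The regulators were the step nearest to all genes, with a median log2 ratio of -0.01 and 1 of 5 at least 2-fold higher. That member was Cfi, which encodes factor I, the plasma protease that cleaves C3b and C4b, with 157 control reads and 1593 in the library labelled CKO, for a log2 ratio of 2.75 (2.52 to 3.004). The other 4 are membrane proteins that protect the cells carrying them, and none of them reached 2-fold. Cr1l, which encodes Crry, a cofactor of factor I on rodent cells, had 1608 and 2417 reads, at a log2 ratio of 0.00 (-0.09 to 0.09). Cd59a, which stops the addition of C9, had 1076 and 1604 reads, at a log2 ratio of -0.01 (-0.12 to 0.10). For this pair the libraries did not differ beyond counting error under this scaling. Cd55, which speeds the decay of the C3 convertases, had 552 and 472 reads, with a log2 ratio of -0.81 (-0.99 to -0.63). Cd46, a membrane cofactor of factor I, had 65 and 88 reads, at a log2 ratio of -0.15 (-0.63 to 0.34), and 15.8% of its windows lie in A330023F24Rik, a gene on the opposite strand at -1.07. With equal totals, Cr1l, Cd59a and Cd46 were at 0.42, 0.41 and 0.27, where the median of all genes was 0.44. The secreted regulator thus lay above the membrane regulators by more than counting error.

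**Figure D4:**
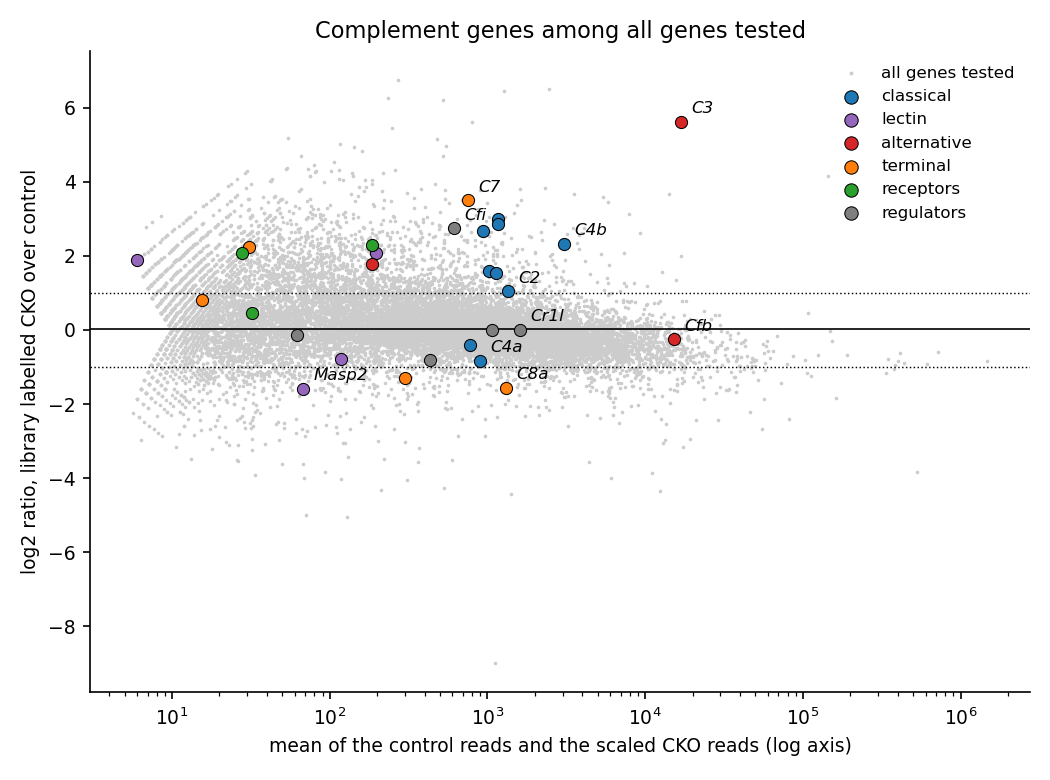
Log2 ratio of the library labelled CKO over the control library against the mean of control reads and scaled CKO reads, on a log axis, for the 17469 genes compared (grey) and the 29 complement genes among them (coloured by step). The solid line is the median of all genes, 0.02, and the dotted lines are the 2-fold limits; C3 lies at 5.63 and Cfb at -0.25, which was 0.16 with equal totals.

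The promoters, 250 bases before to 50 after the start site, were matched for 29 of the 36 genes. C1qa, C2, C4a, C4b, Cfb, Cfi and Masp1 had no entry. Each window was searched on both strands for 4 motifs, and a match is a description of letters, not a site. The kappaB-like letters GGGNNTTTCC were in 1 of the 29 windows and in 1.63% of 32851 windows of all genes. The gamma-activated letters TTCNNNGAA were in 4, those of C1ra, C7, C8a and Masp2, and in 8.30% of all. Both are bound by factors known from inflammatory signalling. The interferon-stimulated response core GAAANNGAAA was in 2, those of Cd46 and Cd59a, and in 3.44% of all. The C/EBP-like letters TTGCNNAA were in 7, those of C1ra, C1rl, C1s1, C3, C5ar2, C9 and Fcnb, and in 10.8% of all. Both genes that rose and genes that did not are among the holders of the gamma-activated and C/EBP-like letters.

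Further genes of the pathway, listed by function outside the 36, were counted in the same way: of 30 used, 20 were compared, 12 were at least 2-fold higher, none was at least 2-fold lower and the median log2 ratio was 1.52. Among the soluble regulators 4 of 5 were higher. Clu, which encodes clusterin, a chaperone that also holds back the attack complex, had 2070 control reads and 39652 in the library labelled CKO, for a log2 ratio of 3.67. Serping1, the inhibitor of C1r and C1s, had 1509 and 6767 reads, at a log2 ratio of 1.58. These inhibitors act at different steps of the cascade, and each was higher under every scaling used. Cfhr2, which encodes a secreted complement protein, was at 1.74 with 91 and 459 reads, and Cpn1, a subunit of the carboxypeptidase that inactivates C3a and C5a, at 2.33 with 115 and 871. Vtn, or vitronectin, was at -0.03 with 13 and 19 reads. All soluble regulators compared except Vtn were thus higher in the same library as C1q, C3 and C4b.

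Of the membrane regulators outside the 36, 1 of 4 was higher, Csmd1, with 19 and 152 reads and a log2 ratio of 2.36. Cd59b, the near copy of Cd59a, was at 0.03. Of the receptors, 3 of 6 were higher, and these were the chains of the leukocyte integrins CR3 and CR4, which bind fragments of C3b. Itgam had 54 and 682 reads, at a log2 ratio of 3.05, Itgax 56 and 507 reads and 2.57, and Itgb2, the chain they share, 68 and 644 reads and 2.64. Of the recognition proteins, Colec12, a scavenger receptor of the collectin family, was at 1.46 with 876 and 3621 reads. Apcs, or serum amyloid P, had 3 and 36 reads, an 8-fold ratio with an interval of 2.53 to 40.6, and passed the minimum through the library labelled CKO alone.

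Marker lists of other cell types are given beside these results, and their part in the result was not tested. Of the macrophage and monocyte markers 14 of 14 were compared and 12 were at least 2-fold higher, with a median log2 ratio of 2.53. Their summed reads were 6736 and 52026. Cd74 had the most reads, with 2610 and 23956 reads, the highest ratio was that of Lyz2 (3.66) and the lowest that of Ly6c2 (0.32). The C1q genes, the C3a receptor and the integrin chains, all known to be expressed by macrophages, had ratios from 2.30 to 3.05. These genes are a selection, and their narrow range depends on it. Outside it, C5ar1 was at 2.07 and Cfp at 1.77, while the marker list itself ran from 0.32 to 3.66. Of the fibroblast and pericyte markers 6 of 7 were higher, with a median of 2.04, summed reads of 5263 and 25568, Col3a1 with the most reads over both libraries (1107 and 9779, behind Pdgfrb and Dcn in the control library), Col1a1 as the highest (2.65) and Pdgfrb as the lowest (0.48).

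Of 8 neutrophil markers 3 were compared and 2 were higher, with a median of 1.64 and summed reads of 42 and 260. Csf3r, with the most reads and the highest ratio, was at 2.37, S100a9 at 1.64 and S100a8, the lowest, at 0.77. S100a8 had 7 and 19 reads, with an interval of -0.46 to 2.35, and passed the minimum through the library labelled CKO alone. Ly6g, Mmp8, Retnlg, Camp and Ngp were not among the rows used here. Of 5 B cell markers used Cd79b alone was compared, with 23 and 40 reads and a log2 ratio of 0.21, and of 6 adipocyte markers none. Ms4a1, Cd79a, Pax5 and Fcer2a of the former list, and Adipoq, Plin1, Cidec, Lep, Retn and Ucp1 of the latter, were not among the rows used here, nor were Ahsg, Fgb and Tat of hepatocytes. Since the liver makes most plasma complement, hepatocyte markers were listed too: 6 of 9 were compared, with 1 higher, 2 lower, a median of -0.47 (0.33 in the values as deposited) and summed reads of 1727 and 3150. Liver RNA markers thus had no common direction. Alb, the gene of albumin, had 117 and 121 reads. Fga had the most reads (943 and 2028), and the highest was Fgg, a fibrinogen chain, at 2.85, and the lowest Apoa2 at -1.36, which with 17 and 9 reads was within 2-fold at a pseudocount of 10 (-0.75) and at 0.21 in the values as deposited. Apoa2 and Apoa1, the latter with 11 and 12 reads, passed the minimum through the control library alone. With at least 50 reads, 4 hepatocyte genes were left, with a median of -0.01.

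Of the markers of the kidney itself, those of the proximal tubule had a median log2 ratio of -0.73 (-0.31 with equal totals), with 0 of 10 at least 2-fold higher, 2 lower and summed reads of 486148 and 410102. Slc34a1 had the most reads, 147064 and 98124, and was lower at -1.17 but within 2-fold with equal totals (-0.75), the lowest was Slc22a6 at -1.62 and the highest Slc5a12 at 0.41. The markers of the labelled tissue were thus abundant in both libraries. Of 6 markers of injured tubules 5 were higher, with a median of 3.08 and summed reads of 7944 and 45925. Havcr1 had the most reads over both libraries, 1639 and 21332, but fewer than Krt8 in the control library, and the highest ratio was that of Lcn2 at 6.45 and the lowest that of Krt8 at 0.45. The 4 podocyte markers used had a median of -0.02 and the 5 endothelial markers of -0.07, or 0.40 and 0.35 with equal totals, with none past 2-fold in either list. Their summed reads were 6397 and 10218 for podocytes, led by Podxl, and 8826 and 11912 for endothelium. The glomerular and vascular lists thus lay near the median of all genes. Of the podocyte markers used, Nphs1 was the lowest at -0.20 (0.22 with equal totals) and Synpo the highest at 0.28, and Kdr the lowest of the endothelial list at -0.67 and Emcn the highest at 0.14.

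**Figure D5:**
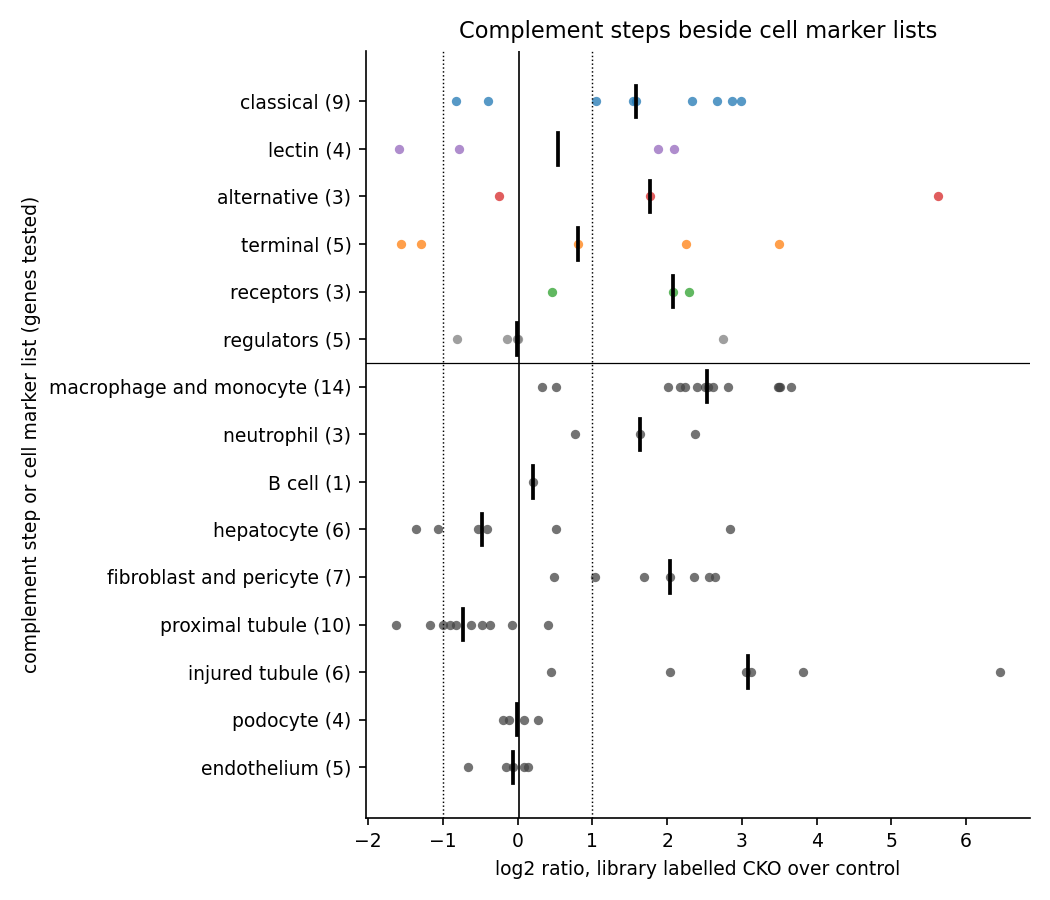
Log2 ratio of the library labelled CKO over the control library for each gene compared in the 6 complement steps and in the marker lists, with the number of genes in brackets. Points are genes, short bars are medians, the long solid line is the median of all genes (0.02) and the dotted lines are the 2-fold limits; the classical median is 1.58 and the macrophage median 2.53, while the regulators lie at -0.01 and, with equal totals, at 0.41 where all genes lie at 0.44.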

How the data were processed

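Whole-kidney RNA was sequenced from TruSeq Stranded mRNA libraries, 1 per group. The authors used STAR 2.7.3a for alignment, HTSeq for counting and DESeq2 for normalization, and the submitters' processing notes name mm10. Their FPKM values from Cufflinks 2.2.1 were not used here. The unit of the deposited values is taken as a score: whole numbers not scaled between libraries. That each column holds reads plus a constant, its minimum minus 1, is an inference. The members and gene lists were chosen with earlier results of these data known. Of the genes listed outside the members, 3 are not reported here and were taken out of their lists after the data were seen, so that the counts and medians of those lists are not those of the lists as planned. Genes reaching 10 scaled reads in 1 library were compared, with a pseudocount of 1 and a limit of 2-fold. Intervals of 95% came from the CKO share of a gene's reads in both libraries (exact Clopper-Pearson). Reads per kb used the merged exons of each gene in the basic set of GENCODE M21, not in the full set. For Cd55 this length was 2533 bases, while its longest transcript in the full set has 3133. The order of genes by reads per kb rests on the lengths used. GENCODE M21 served to find 100-base windows of a transcript shared with other genes. Promoters and positions came from RefSeq, GRCm38.p6. Named were all members in the table, other complement genes past 2-fold, the marker with the most reads, the highest and the lowest of each list, and Zc3h12b. Vtn, Cd59b, Alb, Apoa1, S100a9, Dcn, C1rb, C1s2 and neighbouring genes were named after their values were seen. The median depth was 284 reads per gene in the control library and 513.5 in the other. Alternatives were a pseudocount of 0.1 or 10, a minimum of 50 reads or none, limits of 1.5-fold and 4-fold, equal totals, equal upper quartiles, the median log2 ratio of compared genes set to 0, the values as deposited and a floor equal to the minimum. The steps were run on simulated data that carried the same floors and as many genes raised as lowered. Such data cannot check the inferred floor or the choice of scaling. Python 3.11.15, numpy 2.4.6, pandas 2.3.3, scipy 1.17.1 and matplotlib 3.10.9 were used.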

Additional observations from a re-analysis of the deposited data

How the results depend on the processing

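The number of complement genes at least 2-fold higher was 16, and 14 to 17 under the other pseudocounts, filters, scalings and floors. It was 17 with a 1.5-fold and 11 with a 4-fold threshold. The number at least 2-fold lower was 3, and 6 with 1.5-fold, 0 with 4-fold, 2 with equal totals and 0 in the values as deposited. The median log2 ratio of all complement genes compared was between 1.04 and 1.57 except with equal totals, where it was 1.96. Equal totals moved the median of all genes from 0.02 to 0.44, and the values as deposited to 0.57, with 89.9% and 96.5% of the genes past 2-fold being higher, against 71.4%. Of 17682 genes compared with equal totals, 3870 were at least 2-fold higher and 437 lower. In the values as deposited these were 3574 and 131 of 20002, against 2334 and 934 of 17469 under the scaling used in the Results. With equal totals the classical, alternative and regulator medians were 2.001, 2.19 and 0.41. With the values as deposited the classical and regulator medians were 2.11 and 0.57. The lectin median, over few genes, was 1.35 with no filter, -0.79 with at least 50 reads, -0.81 with the median of compared genes set to 0 and -0.81 with the floor at the minimum, as Mbl2 or Fcna entered or left the list. An alternative chosen after seeing the data left out the members sharing over 10% of their windows with another gene: of 21 genes 12 were higher and 2 lower, with a median of 1.87. That median is the ratio of Mbl2, which is also among the 12. With 2 and 15 reads, Mbl2 passed the minimum through the library labelled CKO alone. Of 75 single genes and other lists followed, 51 moved beyond their counting interval with equal totals, 51 in the values as deposited (among them Apoa2, the one gene followed past 2-fold that changed sign, from -1.36 to 0.21), 5 with equal upper quartiles, 1 of the 74 left with the median of compared genes set to 0, 1 of the 74 left with the floor at the minimum and 0 with either pseudocount or with no filter. With at least 50 reads 65 of them remained, and 0 of these moved. C1rl, Cfb, Cd59a, Cd46, Nphs1, Zc3h12b and the podocyte and endothelial medians, all within 2-fold, changed sign with equal totals and in the values as deposited, and Cr1l, Cd59a and the podocyte median, near 0, also under other scalings or floors. The cause of these moves was not tested. No paired analysis was possible because there was 1 library per group. Depth limits statements on Mbl2, Fcna, C6, C9, C5ar1, Cr2 and Apcs, each with at most 27 reads in the control library.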
